A study of Rattus norvegicus with 15 samples.

Results

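Fibroblast growth factors (FGFs), platelet-derived growth factors (PDGFs), the epidermal growth factor (EGF) and neuregulin family and hepatocyte growth factor (HGF) are secreted proteins that act through receptor tyrosine kinases on the cell surface. Their expression was followed in dissociated cells of rat dorsal root ganglia (DRG), the ganglia that hold the cell bodies of sensory neurons. Probes were taken by a rule on gene symbols that uses no measured value, though the choice was made with earlier results of these data known. A probe belonged to the set when its annotated symbol began with Fgf, Pdgf or Erbb, began with Nrg and a digit, or was Egf, Egfr, Areg, Ereg, Hbegf, Tgfa, Hgf or Met. This gave 42 probes for 38 genes, of 5088 probes and 4153 named genes in all. Fgfr1 had 3 probes, and Egfr and Nrg1 had several as well, which makes 3 genes measured more than once.

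Cells came from the L4 and L5 ganglia of juvenile rats and received 1.5 mM dibutyryl cAMP (dbcAMP), an analog of cAMP that crosses the cell membrane, for 1, 3, 6, 12 or 18 h. Controls were cells of the same source in medium without dbcAMP. Each of the 15 arrays, 3 at each of the 5 times, compared treated RNA in Cy5 with control RNA in Cy3, and no array had the dyes exchanged. The first time is 1 h in the labels of its samples, where their treatment protocol lists 0 h, and the wells were coated with poly-L-lysine or myelin without a record of which array had which. Cultures of whole ganglia hold neurons, glia and fibroblasts together, so a lower ratio cannot tell fewer cells of a type from less RNA per cell. The deposited values are ratios with no signal level, so the presence of the labelled cell types could not be checked by level, and a probe that stayed at its control level cannot be told from a probe without signal. Values below are log2 of the treated over control ratio of a probe, where 0 means no difference, 1 means a ratio of 2 and -1 a ratio of 0.5.

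Members of these systems meet in sensory ganglia in known ways. Neuregulin 1 on axons acts on the ErbB2 and ErbB3 receptors of Schwann cells and governs their survival and myelination, and FGF2 and HGF are known as trophic factors for sensory neurons. FGFs need heparan sulfate to bind their receptors, most PDGFs act on mesenchymal cells, and the receptors of all these systems feed the Ras-MAPK and PI3K pathways.

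Few of the growth factor and receptor probes differed from control at the early times, and 11 of 40 tested did so after 18 h (limma, adjusted p under 0.05 over all probes). At 1 h 1 of 42 probes passed and was lower, beside 2.33% of all probes tested, of which 0.732% higher and 1.60% lower. At 3 h 3 of 42 passed, all lower, beside 2.87% of all probes (0.931% higher, 1.94% lower). At 6 h 1 member was higher and 4 lower of 42, beside 4.19% of all probes (1.84% higher, 2.35% lower). Decreases also made up most of the later calls. At 12 h 1 was higher and 5 lower of 40, beside 8.58% of all probes (3.81% higher, 4.77% lower). At 18 h 3 were higher and 8 lower, a share of 27.5% beside 22.0% of all probes tested (10.6% higher, 11.3% lower). The balance of directions depended on the handling of array spread. With arrays scaled to a common spread 1 member was higher and 3 lower at 1 h, and 6 were higher and 4 lower at 3 h. At 18 h 0 were higher and 4 lower. Of all probes this scaling called 127 higher and 195 lower at 1 h and 171 and 266 at 3 h. At 18 h it called 176 and 237. With array weights, added after the data were seen, 8 were higher and 4 lower at 3 h, beside 250 and 316 of all probes. The main fit called 47 of all probes higher and 98 lower at 3 h, and 533 and 568 at 18 h. Relative to plate medians 5 were higher and 8 lower at 18 h, beside 499 and 504 of all probes. The median over the members stayed near 0 at every time. It was 0.05, 0.04, 0.00, -0.03 and 0.01 at 1, 3, 6, 12 and 18 h, beside 0.02, 0.02, 0.02, 0.00 and 0.01 over all probes. In all, 15 probes of 14 genes were called at 1 or more times, and 27 probes were called at none.

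These counts rest on small numbers of arrays. Over all probes the log2 ratios of 6 arrays were more widely spread (SD 0.627 to 0.703) than those of the remaining 9 (0.357 to 0.434), and the wide set comprised every array of 18 h, the first and second of 12 h and the third of 6 h. The test used a spread shared by all 15 arrays, and when only the arrays of 18 h entered, 3 members and 183 of all probes passed there. Without array 1 of 12 h 0 members passed at that time, and without array 3 of 12 h 2 did. Of all probes 142 and 543 passed then, in place of 430. At 6 h 2 passed without array 1, and 3 passed without array 2 or without array 3. Of all probes these fits called 120, 149 and 103, in place of 212. At 1 h 0 passed without array 2 or without array 3, beside 27 and 24 of all probes in place of 118. At 18 h leaving out an array left 8 or 9 calls, and 808 to 918 of all probes in place of 1101. No source states that arrays of the same time were made from separate cultures, and the p-values then cover only array-to-array variation, possibly of technical origin.

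**Figure D1:**
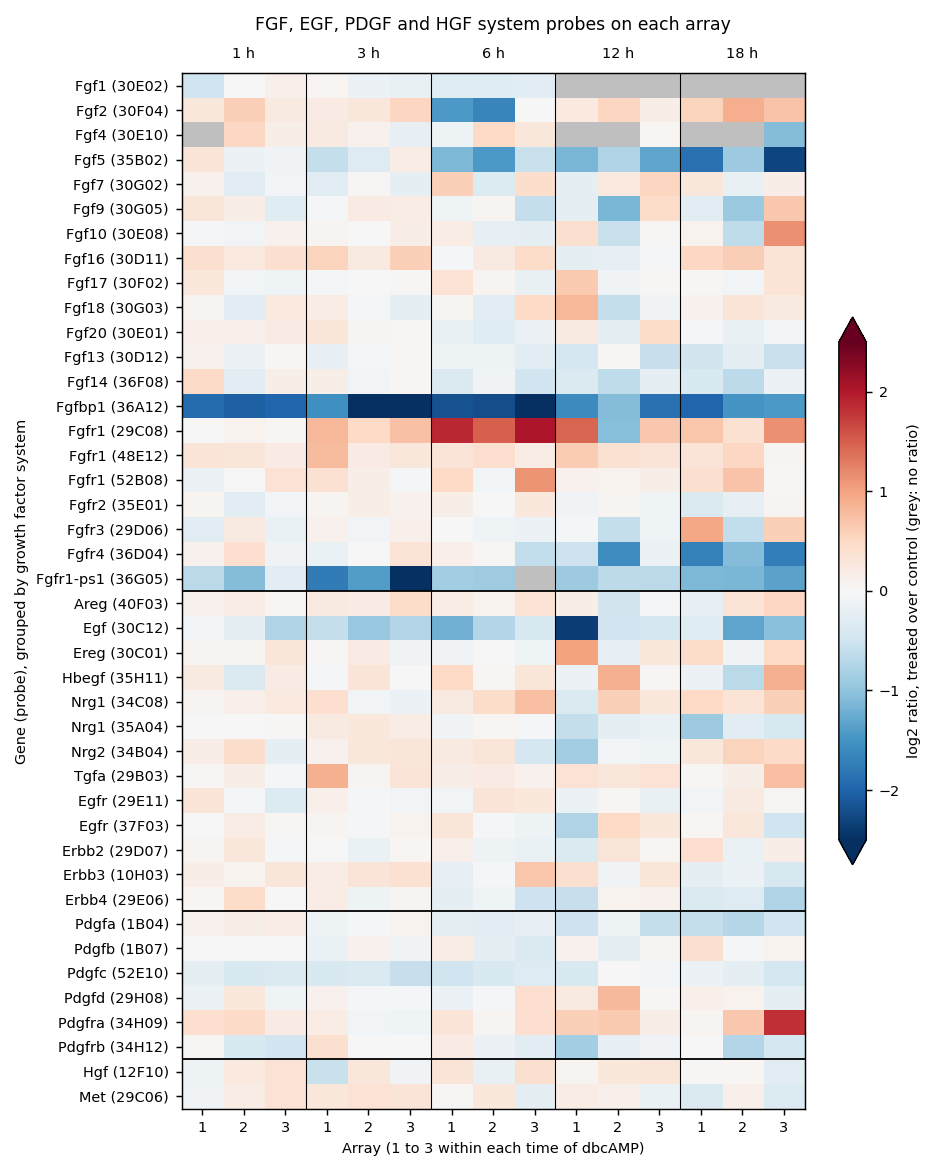
Each row is a probe (gene and probe position), grouped by growth factor system from FGF to HGF, each column an array at 1, 3, 6, 12 or 18 h, and colour is the log2 ratio of treated over control, with grey where a probe has no ratio. Fgfbp1 is below -1 on all 15 arrays, Fgf5 and Fgfr4 darken towards 18 h, and the first of the Fgfr1 probes (29C08) peaks at 6 h.

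Fgf5, Fgfr4 and Pdgfa were the 3 members whose ratio differed between 18 h and 1 h, and Fgf2 differed between 18 h and 6 h, so up to 250 bases before the annotated start of these genes are shown. For Fgfr4 they number 216, since 34 bases of RefSeq's promoter window lie within the annotated gene and are left out. The promoter of Areg is added because, of the 31 RefSeq promoters found for 30 of the 38 genes, it alone held the full cAMP response element. Capitals mark that element (TGACGTCA), its short form (TGACG or CGTCA) and the GC box (GGGCGG or CCGCCC), each sought on both strands, and the short form lies within the full element. The sequences are RefSeq's on GRCr8, written 5' to 3' in the direction of transcription.
Fgf5 (chr14:11650244-11650493, minus strand): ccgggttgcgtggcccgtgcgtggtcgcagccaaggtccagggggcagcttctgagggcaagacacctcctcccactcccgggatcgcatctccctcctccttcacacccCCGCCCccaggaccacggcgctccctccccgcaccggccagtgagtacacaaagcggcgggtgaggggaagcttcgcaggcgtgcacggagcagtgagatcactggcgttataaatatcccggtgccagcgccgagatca
Fgfr4 (chr17:9481424-9481639, minus strand): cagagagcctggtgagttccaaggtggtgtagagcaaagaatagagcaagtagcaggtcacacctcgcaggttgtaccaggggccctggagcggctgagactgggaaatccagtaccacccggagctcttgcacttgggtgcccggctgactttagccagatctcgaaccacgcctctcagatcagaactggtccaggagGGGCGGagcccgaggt
Pdgfa (chr12:20759116-20759365, plus strand): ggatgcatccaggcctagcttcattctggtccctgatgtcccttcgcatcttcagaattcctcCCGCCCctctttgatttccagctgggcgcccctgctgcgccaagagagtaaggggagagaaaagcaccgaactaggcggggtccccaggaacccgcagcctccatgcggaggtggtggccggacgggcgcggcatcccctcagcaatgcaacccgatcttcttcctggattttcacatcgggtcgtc
Fgf2 (chr2:122164204-122164453, plus strand): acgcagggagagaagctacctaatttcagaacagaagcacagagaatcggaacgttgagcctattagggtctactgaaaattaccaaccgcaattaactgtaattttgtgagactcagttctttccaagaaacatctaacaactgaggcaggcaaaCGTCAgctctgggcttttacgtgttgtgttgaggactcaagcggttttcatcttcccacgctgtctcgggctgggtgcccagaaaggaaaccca
Areg (chr14:17265642-17265891, minus strand): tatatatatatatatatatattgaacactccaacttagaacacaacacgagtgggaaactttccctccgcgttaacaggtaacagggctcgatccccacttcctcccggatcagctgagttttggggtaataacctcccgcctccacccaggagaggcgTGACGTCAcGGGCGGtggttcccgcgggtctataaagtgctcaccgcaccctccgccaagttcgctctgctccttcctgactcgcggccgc
The promoters of Fgf5, Fgfr4 and Pdgfa hold 1 GC box each and neither form of the cAMP response element in the stretches shown. Fgf2 holds the short form 94 bases before its start, without a GC box. Over the full windows of 250 bases of all 33469 promoters, 1.59% held the full element, 18.2% the short form and 30.5% a GC box. Of the 31 member promoters, 1 held the full element, 6 (19.4%) held the short form and 16 (51.6%) held a GC box. The genes with the short form were Areg, Fgf14, Fgf2, Hbegf and Pdgfd. Areg, the amphiregulin ligand of the EGF receptor, averaged 0.11 ± 0.07 after 1 h and 0.22 ± 0.37 after 18 h (log2 ratio, SD, n = 3 each) and was called at no time. A match of letters is a description of the window and not evidence of binding.

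The secreted FGFs split at 18 h into 1 that fell and 2 that rose, of 9 tested. Fgf5, known for ending the growth phase of the hair follicle, had the lowest mean of all members at that time. Its log2 ratios were -1.86, -0.91 and -2.30, a mean of -1.69 ± 0.71 (SD, n = 3) or a ratio of 0.31 (adjusted p = 0.000293). The decrease was already called at 6 h, with values of -1.12, -1.44 and -0.55 (mean -1.04 ± 0.45, adjusted p = 0.0264). At 12 h they were -1.14, -0.76 and -1.32 (mean -1.07 ± 0.29, adjusted p = 0.0141). All 9 arrays from 6 h on were below 0, while those of 1 h lay on both sides of 0 (0.32, -0.14 and -0.08) and those of 3 h averaged -0.24 ± 0.41. The call at 18 h held whichever of its arrays was left out, but with the arrays of 18 h alone the adjusted p was 0.0603. At 6 h the call was lost without array 1 (adjusted p = 0.124) or array 2 (-0.84, adjusted p = 0.137), and at 12 h without array 1 (-1.04, 0.0898) or array 3 (-0.95, 0.0623).

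Fgf2, the heparin-binding basic FGF, moved in both directions. At 18 h its log2 ratios were 0.56, 0.90 and 0.72, all above 0, with a mean of 0.73 ± 0.17 (ratio 1.66, adjusted p = 0.0374). At 6 h they were -1.44, -1.66 and -0.01, a mean of -1.04 ± 0.90 (adjusted p = 0.0224), so that 2 arrays were far below control and the other was at its level. At 1, 3 and 12 h all arrays were above 0, with means of 0.37, 0.34 and 0.31, and none of these times passed (adjusted p = 0.724, 0.796 and 0.467). Each call was lost when particular arrays were left out. The call at 18 h was lost without any of the arrays (0.64 to 0.81, adjusted p from 0.0779 to 0.151), and that at 6 h without array 1 (-0.83, 0.147) or array 2 (-0.72, 0.14).

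Fgf16, of the subfamily of Fgf9 and Fgf20, was higher at 18 h, with log2 ratios of 0.52, 0.62 and 0.34 (mean 0.49 ± 0.14, ratio 1.41, adjusted p = 0.00758). Its means at 1 and 3 h were 0.35 ± 0.09 and 0.45 ± 0.20, also above 0 on each array but short of the threshold (adjusted p = 0.205 and 0.0547), and at 12 h all 3 arrays were below 0 (-0.15 ± 0.11). Without array 2 of 18 h the value was 0.43 and the adjusted p 0.0529.

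The remaining secreted FGFs were called at no time. They were Fgf7 and Fgf10, which pass from mesenchyme to epithelium, Fgf17 and Fgf18, Fgf9 and Fgf20, and Fgf1 and Fgf4. Means of the 6 with ratios on all arrays lay between -0.31 (Fgf9 at 12 h) and 0.23 (Fgf7 at 6 h). Arrays of a time differed widely for some of them. At 18 h Fgf10 had 0.09, -0.63 and 1.15, and Fgf9 had -0.28, -0.92 and 0.68, which lie on both sides of control. Fgf1, the acidic FGF, had ratios on 9 arrays and on none of 12 or 18 h, so it could not be tested there. Its means were -0.12, -0.09 and -0.29 at 1, 3 and 6 h, and at 6 h its arrays lay close together (-0.30, -0.30 and -0.27, adjusted p = 0.298). Fgf4 had ratios on 10 arrays, and its single value at 18 h, -1.08 on array 3, was not tested.

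Fgf13 and Fgf14 are not secreted. They stay inside neurons and bind voltage-gated sodium channels. Fgf13 was lower at 18 h, with log2 ratios of -0.45, -0.23 and -0.55 (mean -0.41 ± 0.16, ratio 0.752, adjusted p = 0.0251), after means of -0.01, -0.07, -0.18 and -0.32 at 1, 3, 6 and 12 h. The call was lost without array 1 (-0.39, adjusted p = 0.1) or array 3 (-0.34, 0.135). Fgf14 had a similar mean at 18 h, -0.40 ± 0.26, that did not pass (adjusted p = 0.0648; -0.53 with 0.0493 without array 3). Its probe lies on source plate 36, whose 96 probes had a median of -0.42 at 18 h, and relative to that median the value was -0.01. Of 12 probes for sensory neuron markers, 1 was higher and 1 lower at 18 h, beside 10.6% of all probes higher and 11.3% lower. The marker median was -0.09. Uchl1 was the lower one at -0.84 and a probe of the neurofilament gene Nefl the higher one at 1.03. That Nefl probe had arrays far apart (0.48, 0.42 and 2.19), and the other Nefl probe was at -0.01 (adjusted p = 0.969). The part of cell composition in the change of Fgf13 was not tested.

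Fgfbp1 was the member furthest below control at 1, 3, 6 and 12 h and the only one called at all 5 times. It encodes a secreted carrier that releases FGFs from the extracellular matrix. At 1 h its log2 ratios were -1.92, -2.04 and -1.99, a mean of -1.98 ± 0.06 (ratio 0.254, adjusted p = 0.00545). At 3 h they were -1.53, -3.61 and -2.90 (mean -2.68 ± 1.06, adjusted p = 0.000402), and at 6 h -2.18, -2.22 and -3.52 (mean -2.64 ± 0.76, adjusted p = 0.000398). All 15 arrays were below -1. At 12 h the values were -1.60, -1.08 and -1.87 (mean -1.52 ± 0.40, adjusted p = 0.011) and at 18 h -1.98, -1.47 and -1.43 (mean -1.63 ± 0.31, ratio 0.324, adjusted p = 0.00289). No difference between any times passed for this probe, and the one between 18 h and 1 h was 0.35 (SE 0.46, adjusted p = 0.764). With the same dyes on every array, a constant bias of a probe adds to all its ratios, and here the change with dbcAMP and such a bias cannot be told apart. Fgfbp1 also lies on plate 36, whose median was -0.25, -0.25, -0.51, -0.34 and -0.42 at the 5 times. Relative to its plate the probe was at -1.74, -2.46, -2.10, -1.19 and -1.24, and each of these values passed. The call was lost at 1 h without array 2 (adjusted p = 0.0626) or array 3 (0.0593), and at 12 h without array 1 (0.0753) or array 3 (0.0518). Scaling to a common spread ended the calls at 12 and 18 h (adjusted p = 0.0611 and 0.129), as did array weights (0.0512 and 0.0593). With the arrays of the time alone the calls at 6 and 12 h were lost (0.107 and 0.0842).

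**Figure D2:**
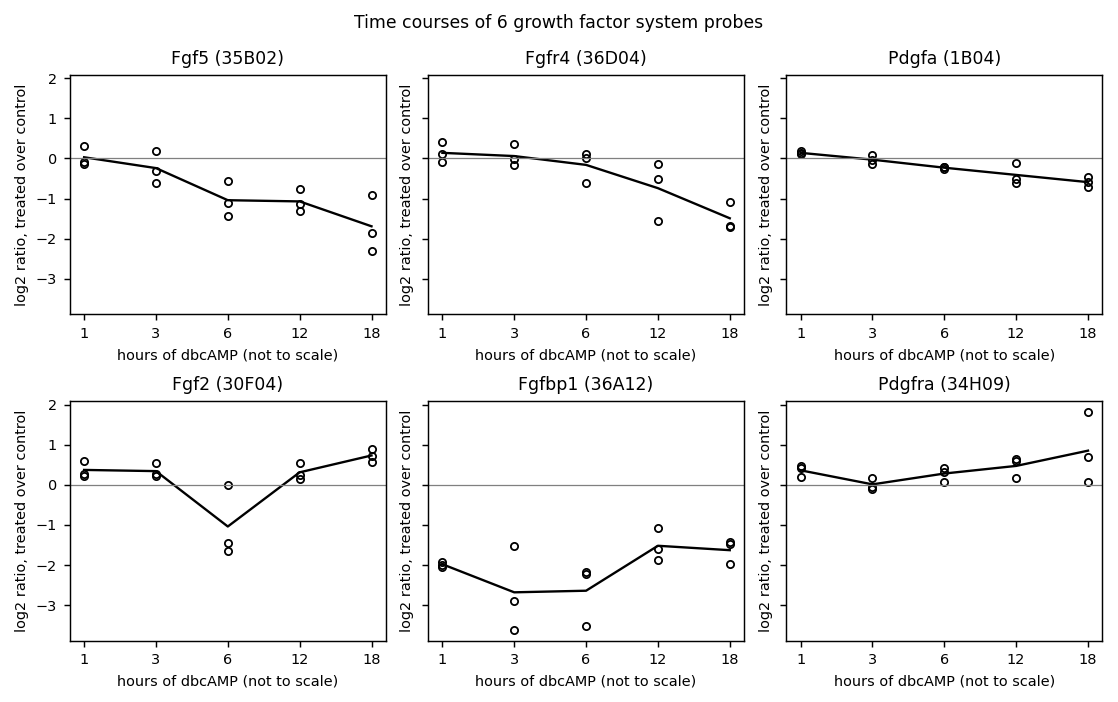
Log2 ratios of treated over control for 6 probes at 1, 3, 6, 12 and 18 h of dbcAMP (hours spaced evenly, not to scale), with a circle for each array and a line through the means of 3 arrays. Fgf5, Fgfr4 and Pdgfa start near 0 and have means of -1.69, -1.49 and -0.59 at 18 h, Fgf2 dips at 6 h on 2 of its arrays, Fgfbp1 is low throughout, and the arrays of Pdgfra spread apart at 18 h.

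Among the 4 FGF receptor genes, which share an extracellular ligand-binding part and an intracellular kinase, Fgfr4 fell late. Its log2 ratios at 18 h were -1.68, -1.08 and -1.72, a mean of -1.49 ± 0.36 (ratio 0.355, adjusted p = 0.000559), and the call held without any of these arrays. Means at 1, 3 and 6 h were 0.14, 0.06 and -0.16, with arrays on both sides of 0 at each of them, and the mean at 12 h was -0.74 ± 0.73 (adjusted p = 0.0696). Fgfr4 is on plate 36 too, and relative to the plate it was -1.11 at 18 h (adjusted p = 0.00427). Fgfr2 and Fgfr3 were called at no time. Fgfr2 stayed between -0.17 and 0.13 over the times. Fgfr3 averaged 0.32 ± 0.83 at 18 h, where array 2 (-0.62) was opposite to arrays 1 and 3 (0.97 and 0.60), and without array 2 it was 0.79 (adjusted p = 0.00586).

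Fgfr1, an FGF receptor of neurons, glia and mesenchyme, was measured by 3 probes that did not move alike. Probe 29C08 rose at 6 h, with log2 ratios of 1.89, 1.50 and 2.03 (mean 1.81 ± 0.28, ratio 3.50, adjusted p = 0.00563; 1.69 with 0.0527 without array 3). This was the highest mean of any member at any time. The same probe was at 0.03 ± 0.04 at 1 h and 0.69 ± 0.17 at 3 h (adjusted p = 0.494), scattered at 12 h (1.46, -1.07 and 0.67), and averaged 0.74 ± 0.38 at 18 h (adjusted p = 0.119). Probe 48E12 was above 0 on all 15 arrays with means between 0.28 and 0.45, and differed by 0.02 between 18 h and 1 h (adjusted p = 0.981). A change with dbcAMP and a constant bias of this probe cannot be told apart. Probe 48E12 passed at 12 h, with values of 0.64, 0.39 and 0.33 (mean 0.45 ± 0.16, adjusted p = 0.0393), and lost that call without any of the arrays (0.36 to 0.52, adjusted p from 0.0529 to 0.233). Probe 52B08 was called at no time, with means between 0.07 and 0.51. At 6 h probe 29C08 exceeded 48E12 by 1.49 ± 0.38 and 52B08 by 1.29 ± 0.34 (log2, SD, n = 3). The exact sign-flip test gave p = 0.25 for each, the smallest that 3 arrays allow. Plates 48 and 52 had medians of -0.27 and -0.34 at 18 h, and relative to these medians 48E12 was at 0.59 (adjusted p = 0.00811) and 52B08 at 0.71 (0.0125) there, where both had missed the threshold before (0.30 and 0.38, adjusted p = 0.105 and 0.172).

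Fgfr1-ps1, annotated as a pseudogene of Fgfr1, was below control. At 3 h its log2 ratios were -1.74, -1.39 and -2.56, a mean of -1.90 ± 0.60 (ratio 0.269, adjusted p = 0.000148). At 18 h they were -1.13, -1.14 and -1.33 (mean -1.20 ± 0.11, adjusted p = 0.000819). All 14 arrays with a ratio were below 0, and the difference between 18 h and 1 h was -0.52 (SE 0.27, adjusted p = 0.355). For this probe too, a change with dbcAMP and a constant bias cannot be told apart. The means of Fgfr1-ps1 were -0.67 at 1 h (adjusted p = 0.111) and -0.88 at 6 h on 2 arrays (0.0594). At 12 h the values of -0.90, -0.66 and -0.68 (mean -0.74 ± 0.13) passed with an adjusted p of 0.0321. It rose above the threshold without any of the arrays (0.0641 to 0.165). Relative to plate 36 the values at 3, 12 and 18 h were -1.68 (adjusted p = 0.000348), -0.41 (0.231) and -0.81 (0.0108). Probe sequences were not used here, so how far the gene's transcripts and those of the pseudogene hybridise to the same probes was not tested.

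**Figure D3:**
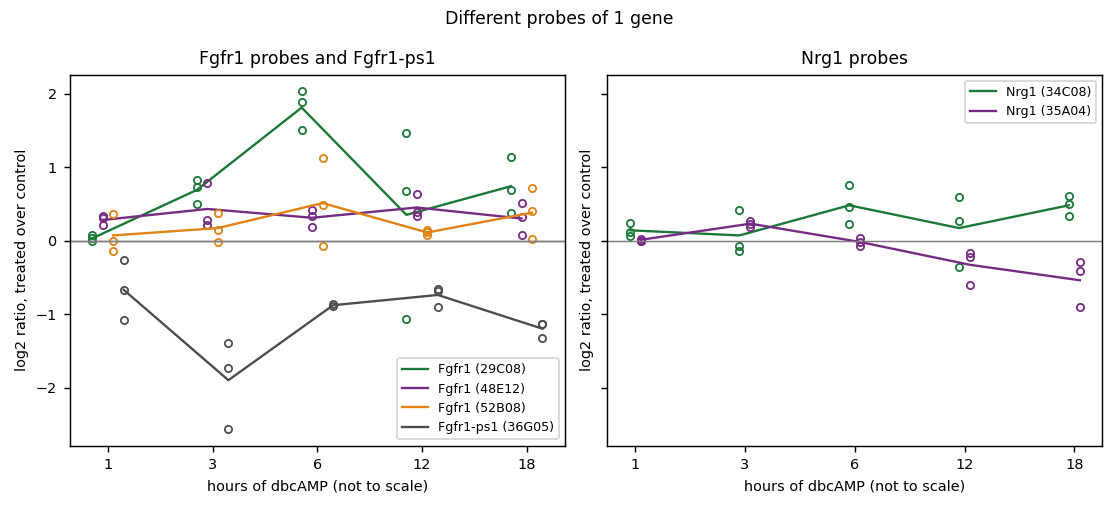
Log2 ratios of treated over control for the 3 probes of Fgfr1 with the pseudogene Fgfr1-ps1 (left) and the probes of Nrg1 (right) at 1, 3, 6, 12 and 18 h (hours spaced evenly), with a circle for each array and lines through the means. Fgfr1 probe 29C08 rises to 1.81 at 6 h while the other Fgfr1 probes stay at or below 0.51 in their means and Fgfr1-ps1 stays below 0, and the Nrg1 probes part by 18 h.

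PDGFs act as dimers on 2 receptors, alpha and beta, and drive the growth of fibroblasts, pericytes and glial precursors. Pdgfa, the main ligand of the alpha receptor, was lower at 12 and 18 h. Its log2 ratios at 18 h were -0.59, -0.72 and -0.47, a mean of -0.59 ± 0.13 (ratio 0.664, adjusted p = 0.00128), and the call held without any array. At 12 h they were -0.52, -0.12 and -0.60 (mean -0.41 ± 0.26, adjusted p = 0.027; -0.36 with 0.156 without array 1 and -0.32 with 0.123 without array 3). At 6 h its arrays were tightly grouped below 0 (-0.22, -0.26 and -0.21) with an adjusted p of 0.277, and at 1 h all were slightly above 0 (0.11, 0.14 and 0.18). Pdgfc, a ligand that must be cleaved to become active, was lower at the early times. At 3 h it had -0.38, -0.37 and -0.58 (mean -0.44 ± 0.12, ratio 0.736, adjusted p = 0.0346) and at 6 h -0.49, -0.38 and -0.32 (mean -0.40 ± 0.09, adjusted p = 0.0488). Both calls were lost without any of their arrays, with adjusted p of 0.136 to 0.344 at 3 h and 0.113 to 0.202 at 6 h. Plate 52, which holds its probe, had medians of -0.16 and -0.18 at these times, and relative to them the values were -0.29 (adjusted p = 0.209) and -0.28 (0.175). At 18 h Pdgfc was -0.27 as deposited and 0.07 relative to the plate, neither of them called. Pdgfb and Pdgfd were called at no time, with means of -0.14 to 0.15 and of -0.01 to 0.35.

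Pdgfra, the alpha receptor, was called higher at 18 h on arrays that differed widely. Its log2 ratios were 0.06, 0.68 and 1.82, a mean of 0.85 ± 0.89 (ratio 1.81, adjusted p = 0.0173), so that array 1 was at control and array 3 far above it. Without array 3 the value was 0.37 and the adjusted p 0.158. Means at 1, 3, 6 and 12 h were 0.36, 0.01, 0.28 and 0.47, and 13 of the 15 arrays were above 0. Pdgfrb, the beta receptor of pericytes and fibroblasts, averaged -0.39 ± 0.36 at 18 h (-0.01, -0.73 and -0.43, adjusted p = 0.124) and was called at no time. Beside these, 0 of 12 probes for fibroblast and perivascular cell markers were higher at 18 h and 4 were lower. Over all probes 10.6% were higher and 11.3% lower. The median of these markers was -0.26, with a range of -0.79 to 0.01. The lower ones were probes of Col1a1 (-0.53), Acta2 (-0.52), Dcn (-0.42) and Vim (-0.40). The other probes of Col1a1 (-0.14, adjusted p = 0.663) and Acta2 (-0.26, 0.494) were not called. Of 7 probes for macrophage markers, 0 were higher and 1 was lower at 18 h, with a median of -0.32. The part of cell composition in the values of Pdgfa and the PDGF receptors was not tested.

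The EGF and neuregulin family had 2 calls at 18 h among 13 probes, beside 22.0% of all probes tested. Both were decreases, of an Nrg1 probe and of Erbb4. Nrg1, the axonal signal to Schwann cells, is made in many isoforms, and its probes disagreed. Probe 35A04 fell, with log2 ratios of -0.91, -0.29 and -0.41 at 18 h (mean -0.54 ± 0.33, ratio 0.690, adjusted p = 0.00618), and without array 1 it was -0.35 with an adjusted p of 0.0692. It had been at 0.01 ± 0.01 at 1 h, 0.23 ± 0.04 at 3 h, -0.02 ± 0.06 at 6 h and -0.33 ± 0.23 at 12 h. Probe 34C08 was at 0.50, 0.34 and 0.60 at 18 h, above 0 on each array, with a mean of 0.48 ± 0.13 that missed the threshold (adjusted p = 0.0525) and passed relative to its plate (0.56, adjusted p = 0.0264). Probe 34C08 minus probe 35A04 at 18 h was 1.41, 0.63 and 1.01 on the 3 arrays, a mean of 1.02 ± 0.39 (exact sign-flip test, p = 0.25, the smallest that 3 arrays allow). The values of the probes do not overlap at 18 h, but how often probes of a gene part in this way was not computed. Which transcripts either probe detects is not given in the sources used here.

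Erbb4, a neuregulin receptor with its own kinase, was lower at 18 h with -0.37, -0.33 and -0.76 (mean -0.49 ± 0.24, ratio 0.713, adjusted p = 0.0327). That call was lost without array 1 (-0.55, adjusted p = 0.0687), array 2 (-0.57, 0.0522) or array 3 (-0.35, 0.201). Its means at the earlier times were 0.17, 0.04, -0.28 and -0.13. Erbb3, the Schwann cell receptor that binds neuregulin but has little kinase activity, was above 0 on all arrays of 1 and 3 h (0.18 ± 0.11 and 0.30 ± 0.10) and below 0 on all arrays of 18 h (-0.23, -0.14 and -0.40, mean -0.26 ± 0.13), and passed at none of these times (adjusted p = 0.86, 0.56 and 0.253). Erbb2, its partner without a known ligand, stayed between -0.05 and 0.13. Of 13 probes for Schwann cell and satellite glia markers, 2 were higher and 4 lower at 18 h. Over all probes 10.6% were higher and 11.3% lower. The marker median was -0.20, and at 1 h none of these markers was called. Cnp (-0.65), S100b probe 52D05 (-0.36) and both probes of Ngfr (-0.83 and -0.43) were the lower ones, and Egr2 (0.60) and Gfap (0.38) the higher ones. The other S100b probe was at -0.17 (adjusted p = 0.394), and plate 52, which holds 52D05, had a median of -0.34 at 18 h. The part of glial cell number in the values of Nrg1, Erbb3 and Erbb4 was not tested.

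Egf was below control on all 15 arrays, yet passed only at 12 h. Its log2 ratios there were -2.36, -0.48 and -0.44, a mean of -1.09 ± 1.10 (ratio 0.469, adjusted p = 0.0463), and without array 1 the mean was -0.46 and the adjusted p 0.346. Its means were -0.35, -0.76 and -0.77 at 1, 3 and 6 h, and at 18 h its values of -0.30, -1.31 and -1.05 averaged -0.88 ± 0.53 (adjusted p = 0.0589; -1.18 with 0.047 without array 1). Between 18 h and 1 h Egf differed by -0.53 (adjusted p = 0.61). A change with dbcAMP and a constant bias of the probe cannot be told apart here. The other ligands of the EGF receptor, Areg, Ereg, Hbegf and Tgfa, and the neuregulin Nrg2 were called at no time. Tgfa was above 0 on 14 of 15 arrays with means from 0.05 to 0.42, and Areg on 12 with means from -0.11 to 0.30. Ereg lay between -0.06 and 0.36. Hbegf, which is shed from the cell surface by metalloproteinases, ranged over 0.02 to 0.27 in its means, with arrays at -0.14, -0.67 and 0.88 at 18 h that straddle control. Nrg2 averaged 0.44 ± 0.13 at 18 h (0.29, 0.55 and 0.48, adjusted p = 0.0946) and -0.34 ± 0.45 at 12 h. The probes of the receptor Egfr stayed between -0.11 and 0.18, and their difference at 18 h was 0.12 ± 0.35 (29E11 minus 37F03).

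Hgf and its receptor Met, which guide axons and promote survival of sensory and motor neurons, were called at no time. Hgf ranged from -0.12 to 0.21 and Met from -0.20 to 0.32. Met was above 0 on each array at 3 h (0.28, 0.36 and 0.33, adjusted p = 0.361). At 18 h the 95% interval of the fit was -0.42 to 0.28 for Hgf and -0.48 to 0.09 for Met (log2).

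**Figure D4:**
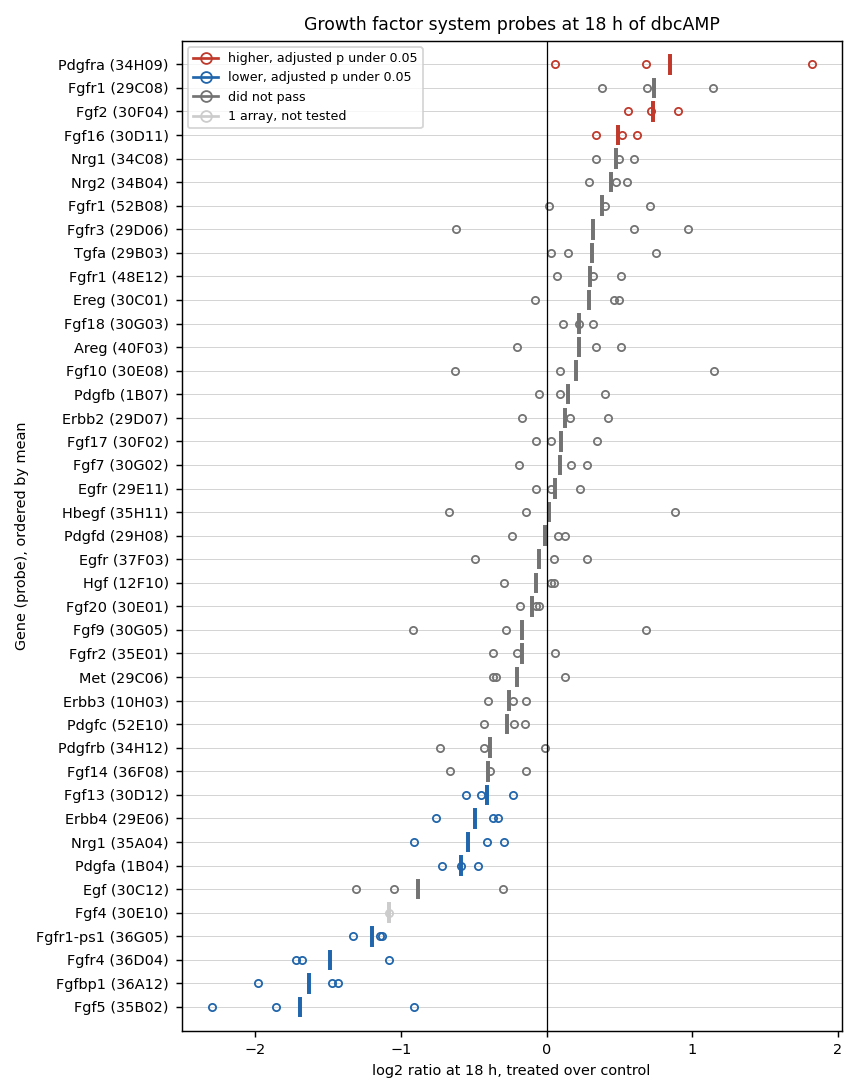
Log2 ratios of treated over control at 18 h for the 41 probes with a ratio at that time, ordered by mean, with a circle for each array and a bar for the mean (red higher and blue lower with an adjusted p under 0.05, grey not called, light grey for Fgf4 with a value on 1 array). Fgf5, Fgfbp1, Fgfr4 and Fgfr1-ps1 stand below -1 in their means with all arrays below 0, and the arrays of Pdgfra, Fgfr3, Fgf10, Fgf9 and Hbegf lie far apart.

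Because every array had the same dyes, a difference between times is free of a constant bias of a probe. Between 18 h and 1 h 3 of 40 members differed, all lower at 18 h, beside 2.74% of all probes tested (1.18% higher, 1.56% lower). Fgf5 differed by -1.72 (SE 0.34, adjusted p = 0.0163), Fgfr4 by -1.64 (SE 0.33, adjusted p = 0.0187) and Pdgfa by -0.73 (SE 0.15, adjusted p = 0.0185). On each of these probes the arrays of 18 h lay below all arrays of 1 h. Selection by this difference makes such a separation likely, and its share over all probes was not computed. Leaving out any array of 1 h or array 1 of 18 h ended all 3 calls, with adjusted p between 0.0513 and 0.09, and without array 2 of 18 h Pdgfa was lost (-0.67, adjusted p = 0.0501). All 10 pairs of times were then compared, a choice made after the data were seen. Fgf5 (-1.45, adjusted p = 0.0369), Fgfr4 (-1.55, 0.027) and Nrg1 probe 35A04 (-0.76, 0.0318) were lower at 18 h than at 3 h, against 3.25% of all probes. Fgf2 was higher at 18 h than at 6 h by 1.76 (SE 0.33, adjusted p = 0.018) and Fgfr4 lower by 1.33 on the log2 scale (SE 0.33, adjusted p = 0.0498), against 2.74% of all probes. No member differed in the other 7 pairs. The F test of any difference over the 5 times called 0 of 40 members, beside 1.87% of all probes. At an unadjusted p under 0.05 it gave 8 members, and Fgf2 and Fgfr4 came nearest to the threshold with adjusted p of 0.0574 and 0.0579.

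Downstream of the receptors, 19 probes of the Ras-MAPK and PI3K relay were tested at 18 h, of which 2 were higher and 3 lower, beside 22.0% of all probes called (10.6% higher, 11.3% lower), with a median of -0.10 beside 0.01 over all probes. Stat5a, a transcription factor that receptor tyrosine kinases can activate, gave opposite values with its probes, -1.24 ± 0.11 for 47A04 and 0.65 ± 0.76 for 7H01 (adjusted p = 0.000154 and 0.0345). Map2k2, the kinase that activates ERK, was at -0.87 ± 0.06 (adjusted p = 0.000283) and the adaptor Crk at -0.71 ± 0.11 (0.0103). Both lie on plate 36 and were already at -0.74 and -0.75 at 1 h, where they were the 2 relay probes called. Pik3r2, a regulatory subunit of PI3K, was higher (0.61 ± 0.12, adjusted p = 0.0216).

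Feedback inhibitors of receptor tyrosine kinases included 4 that were higher and 2 that were lower at 18 h, of 12 tested, with a median of 0.26, beside 10.6% of all probes higher and 11.3% lower. Dusp6, a phosphatase that removes the activating phosphates of ERK, was at 1.32, 0.85 and 0.85 (mean 1.01 ± 0.27, adjusted p = 0.000451). Dusp1, a related phosphatase and known immediate early gene, was at 0.61 ± 0.14 (adjusted p = 0.00258) and had reached 0.57 at 1 h (0.0234). The phosphatase Ptpn6 (0.54 ± 0.20, adjusted p = 0.00393) and Errfi1, an inhibitor of the EGF receptor (0.57 ± 0.38, 0.0231), were the other higher ones. Grb14 (-0.91, adjusted p = 0.0111) and Cblb (-0.70, 0.0369), both on plate 36, were lower, and Grb14 was already at -1.08 at 1 h (0.0234).

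The list of proteins that shed or activate growth factor precursors, their inhibitors included, had 5 higher and 0 lower probes at 18 h, of 18 tested, beside 10.6% of all probes higher and 11.3% lower. The median was 0.27, and none was called at 1 h. Plat and Hpn lie on plate 12 with several others of the list, and that plate had a median of 0.19 at 18 h. Plat, the tissue plasminogen activator, was at 1.04, 0.91 and 1.17 (mean 1.04 ± 0.13, adjusted p = 1.56e-05). Hpn, the protease hepsin that activates pro-HGF, was higher with arrays far apart (1.76, 2.47 and 0.42, adjusted p = 0.00639). Adam17, which sheds Tgfa, Areg and Hbegf, was at 0.46 ± 0.15 (adjusted p = 0.00682), Plaur at 0.39 ± 0.08 (0.0173) and the metalloproteinase inhibitor Timp1 at 0.37 ± 0.16 (0.0157). In the list of heparan sulfate proteoglycans and FGF co-receptors 2 probes were higher and 3 lower of 19, beside the same 22.0% of all probes called. The median was -0.16. Gpc1, a glypican that binds FGFs, was at -0.69 ± 0.41 (adjusted p = 0.00308), whereas Cd44, which presents heparin-binding factors, was at 0.45 ± 0.14 (0.00673). Decorin, Dcn, was at -0.42 ± 0.06 (0.00757). It was on the list although it does not carry heparan sulfate, and the same probe counted among the lower fibroblast markers. A list of further EGF-family and HGF-family ligands and receptors had 5 probes, some of them for the neuropilins Nrp1 and Nrp2. Neuropilins belong to neither family. Of the 5 probes 1 was lower, beside 11.3% of all probes. This was the Nrp2 probe 52A09 at -0.93 ± 0.17 (adjusted p = 0.00677), while the other Nrp2 probe was at -0.12 ± 0.22 (0.708). Plate 52, which holds 52A09, had a median of -0.34 at 18 h. Btc (-0.25, adjusted p = 0.351) and Mst1 (0.70, 0.0523) were not called.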

How the data were processed

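Treated (Cy5) and control (Cy3) RNA were hybridised together on 15 spotted oligonucleotide arrays. The authors deposited linear ratios of treated over control, 1 per probe and array. How they corrected background, normalized and filtered the signals is not given in the sources used here. Array medians of the ratio were 0.997 to 1.02, so log2 ratios were taken without centring. Between 28 and 105 probes lacked a ratio on an array. Names come from GEO's annotation of the platform and may be outdated. In it 4423 probes had 1 symbol, 2 several and 663 none. All 38 member symbols matched RefSeq's GRCr8 gene table.

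limma 3.58.1 in R 4.3.3 was fitted to all 15 arrays with 1 mean per time (lmFit, eBayes), each mean tested two-sided against 0 where at least 2 arrays had a ratio, with Benjamini-Hochberg adjustment over all probes and a threshold of 0.05. Further tests were 18 h minus 1 h, all 10 pairs of times and an F test. The fit was tested on simulated data, where it found 77.3% of 2-fold changes at 18 h and 48.7% between 18 h and 1 h. In the simulation a probe had the same spread on every array, unlike in the data, so it cannot test the shared spread. Alternatives were centring on array or plate medians, a common spread, arrays of the time alone, a replicate block, the methods' t-test, filters on missing values, array weights, a threshold of 0.01 and leaving out arrays. Plates were read from probe names. Every member is named, called ones with all arrays of the time. Pathway and marker lists are described by counts, with up to 4 members of smallest p. Further called members of the lists were named after their values were seen. Members and lists were chosen with earlier results of these data known. The number of arrays limits precision. Figures used matplotlib 3.10.9.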

Additional observations from a re-analysis of the deposited data

Results flagged for a closer look

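Each of the following differences between 2 times passed the test of the difference itself (limma, adjusted p under 0.05 over all probes). The 3 pairs of times are overlapping views of the same arrays of 18 h, and the pairs other than 18 h against 1 h were added after the data were seen. No explanation was tested for any of them.

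Fgf5 was lower at 18 h than at 1 h, by a log2 difference of -1.72 between means of -1.69 and 0.03. Against 3 h its difference was -1.45. Fgfr4 was lower at 18 h than at 1, 3 and 6 h, with differences of -1.64, -1.55 and -1.33, and the last of these has an adjusted p of 0.0498. Pdgfa was lower at 18 h than at 1 h by a difference of -0.73, with all arrays of 18 h below 0 and all arrays of 1 h above it. The Nrg1 probe 35A04 was lower at 18 h than at 3 h, with a difference of -0.76 between means of -0.54 and 0.23. Fgf2 was higher at 18 h than at 6 h, with a difference of 1.76 between means of 0.73 and -1.04, and array 3 of 6 h was at -0.01. The adjusted p of the differences between 18 h and 1 h exceeded 0.05 when any array of 1 h was left out, and leaving out arrays was not run for the other pairs.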

How the results depend on the processing

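All 29 called values of members kept their direction under every alternative run for them, and none reversed, but many lost their call. The replicate block, the methods' t-test, the arrays of the time alone and the filters on missing values leave a mean unchanged or nearly so. Selection of values far from 0 also makes a change of sign unlikely, so the kept direction was largely fixed in advance. Of the 11 calls at 18 h, 5 (Fgf5, Fgfbp1, Fgfr4, Fgfr1-ps1 and Pdgfa) were kept whichever array of 18 h was left out. Those fits still shared the spread of the arrays of earlier times. Scaling all arrays to a common spread gave 4, 10, 0 and 4 members at 1, 3, 12 and 18 h, in place of 1, 3, 6 and 11, with 0 between 18 h and 1 h in place of 3 and 1 in the F test in place of 0. Of all probes it called 322, 437, 256 and 413 at 1, 3, 12 and 18 h, in place of 118, 145, 430 and 1101. The arrays of the time alone gave 6, 1, 0 and 3 members at 3, 6, 12 and 18 h and 1 between 18 h and 1 h. Of all probes they called 353, 10, 5 and 183 at 3, 6, 12 and 18 h. Array weights, added after the data were seen, gave 4, 12, 2 and 6 members at 1, 3, 12 and 18 h, beside 375, 566, 232 and 673 probes of all. Leaving out the 6 arrays of wide spread, also added later, gave 6 at 3 h, beside 347 of all probes. An adjusted p under 0.01 gave 2, 0 and 7 at 6, 12 and 18 h, beside 95, 176 and 617 of all probes, and 0 between 18 h and 1 h. Centring on plate medians gave 13 at 18 h and 1 in the F test, and ended the calls of Pdgfc at 3 and 6 h, Fgfr1-ps1 and Egf at 12 h and Fgf2 at 18 h (0.71, adjusted p = 0.0519).

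The methods' t-test, without a shared spread, gave 0 members after Benjamini-Hochberg adjustment at every time and between 18 h and 1 h, and 1 probe of all at 18 h. At an unadjusted p under 0.05 it gave 6, 8, 8, 6 and 9 members and 654, 758, 461, 489 and 907 probes. Leaving out 1 array gave 0 to 1, 2, 2 to 3, 0 to 6 and 8 to 9 members at 1, 3, 6, 12 and 18 h, and 0 to 3 between 18 h and 1 h. Leaving out all arrays of a replicate number gave 0 to 1 in the F test, where 5 or 6 probes of all were called in place of 93.

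Replicate numbers did not pair the arrays. Of 30 pairs of arrays with the same number, 0 correlated over 0.1 (-0.059 to 0.069). With the replicate block the counts were 1, 2, 4, 4 and 11 members at the 5 times, 3 between 18 h and 1 h and 0 in the F test, and the block ended the calls of Pdgfc at 3 and 6 h (adjusted p = 0.0695 and 0.0849) and of Fgfr1-ps1 (0.0533) and Egf (0.0694) at 12 h. Signal over background is not known for ratios, so the limit that brightness sets on any probe is not known either.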
